A study of Mus musculus with 12 samples.

Results

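Type I interferon-stimulated genes, 41 genes known to be induced by these antiviral cytokines, were taken as a named list, and 38 of the 41 could be read in whole bone marrow of young B6 mice, out of 19938 genes measured. The list was chosen with earlier results of these data known. Counts of its genes beside the share of all genes are thus descriptions and no independent test of the list. A gene was taken from the array rows that carry its symbol alone, at the row with the highest mean, and each of the 38 had exactly 1 such row. Isg15 and Oas1g lay only on rows shared with other genes and Ifi44 had no row here, so these 3 were not analysed here. Expression was measured on 12 arrays of total RNA in 4 groups of 3, and values are log2 expression as deposited by the authors, so a difference of 1 is a 2-fold change. The nonirradiated vehicle and nonirradiated parathyroid hormone (PTH) groups received no irradiation. The irradiated vehicle and irradiated PTH groups received sub-lethal irradiation as 2 fractions of 310 cGy at day 10 of age. All 4 groups were treated for 5 days (day 11 to day 15), and the marrow of the long bones was flushed out at day 16. PTH, a hormone that raises blood calcium, builds bone when given in daily pulses, and the series title asks how changes in the marrow bear on that action. Separate mice are not stated in the labels for the replicates, and every p-value below refers to the spread among these arrays, some of which may be technical.

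Type I interferons are secreted proteins that bind the receptor IFNAR1-IFNAR2, and the kinases JAK1 and TYK2 then phosphorylate STAT2. With IRF9 it acts in the complex ISGF3, which binds the interferon-stimulated response element (ISRE) in promoters and raises the transcription of many antiviral genes, among them sensors of viral RNA, OAS and IFIT proteins and Mx GTPases. In bone marrow, type I interferon is also known to push resting haematopoietic stem cells into cycle.

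The arrays also differed in sex pattern and in the range of their values. By Xist and Y-linked genes, 0 of 3 nonirradiated vehicle arrays and 3 of 3 nonirradiated PTH arrays had the female pattern. In each irradiated group 1 of 3 arrays had it. PTH and sex thus cannot be told apart in nonirradiated mice. The sex pattern was also unequal between irradiated and nonirradiated arrays in both arms. A narrow range was seen in nonirradiated vehicle replicate 3 (interquartile range 2.86) and in irradiated PTH replicate 3 (2.875), while the remaining arrays had 3.13 to 3.247. The mean of all genes lay between 6.64 and 6.71 in each of the 12 arrays.

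The ISRE is the sequence these genes are known for, and it was searched in the promoters as GAAANNGAAA on either strand (TTTCNNTTTC on the reverse strand), in the 250 bases before and 50 after each RefSeq start (GRCm38.p6). Of the 38 genes, 28 had a promoter entry, and 11 of these 28 held at least 1 match, against 3.99% of 27025 genes with an entry. The list holds genes known for this element, so that excess is no result of these arrays. Of the 11 genes with an entry that were higher after irradiation averaged over both treatments, 7 held a match (Ifit1, Oas1a, Ifit3, Rsad2, Oas3, Ifih1 and Eif2ak2), as did 4 of the 17 others (Bst2, Stat2, Trim30a and Ddx58). Oas2, Usp18, Rtp4, Parp9 and Parp14 were also higher in that average but had no entry, so their promoters could not be read. Stretches around the matches are shown for the 6 genes with the largest average irradiation change whose matches lay wholly before the start. They run 5′ to 3′ on the strand of the gene, with the matches in capitals.
Ifit1, chr19:34640765-34640833, plus strand: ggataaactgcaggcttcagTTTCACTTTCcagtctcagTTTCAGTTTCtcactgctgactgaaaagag
Oas1a, chr5:120907526-120907565, minus strand: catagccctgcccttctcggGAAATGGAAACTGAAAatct
Ifit3, chr19:34583353-34583436, plus strand: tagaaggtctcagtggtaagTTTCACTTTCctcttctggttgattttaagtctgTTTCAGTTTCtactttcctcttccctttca
Rsad2, chr12:26456543-26456592, minus strand: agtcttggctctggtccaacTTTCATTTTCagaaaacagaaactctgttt
Oas3, chr5:120777705-120777754, minus strand: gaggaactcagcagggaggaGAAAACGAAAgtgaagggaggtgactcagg
Bst2, chr8:71537567-71537622, minus strand: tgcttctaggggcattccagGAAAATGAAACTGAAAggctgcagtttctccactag
Ifit1 and Ifit3 each held the letters TTTCACTTTC and TTTCAGTTTC, beginning 104 and 85 bases before the start in Ifit1 and 156 and 122 bases before it in Ifit3. In Oas1a and Bst2 a pair of matches overlapped, beginning 20 and 14 bases before the start of Oas1a and 130 and 124 bases before that of Bst2. Rsad2 held 1 match beginning 120 bases before its start, and Oas3 held 1 beginning 75 bases before. Another element of interferon signalling, the gamma-activated site TTCNNNGAA, which reads the same on both strands, was found in 7 of the 28 promoters against 9.55% of all genes, in 3 of the 11 higher genes and 4 of the 17 others. A match is a run of letters in this window and no test of binding.

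A subset of the interferon-stimulated genes, led by Ifit1, Oas1a, Oasl2, Ifit3 and Rtp4 with average log2 changes of 1.42 to 1.61, was higher after irradiation, while others, such as Ifit2, Mx1 and Ddx58, had average changes between -0.13 and 0.07. By limma, with p-values adjusted by Benjamini-Hochberg over 19938 genes, 5 of 38 were higher in irradiated than in nonirradiated vehicle mice, against 1.21% of all genes, and 0 were lower (1.01%). In PTH-treated mice 10 of 38 were higher, against 0.692% of all genes, and 0 were lower (1.74%). Oas1a, Oasl2, Ifit1 and Rtp4 were higher in both arms, which are 4 of the 5 and 4 of the 10. The arms share no arrays, but they share the estimate of spread of each gene, so their calls are not independent. Averaged over both treatments, a comparison made of the same arrays, 16 were higher (2.51% of all genes) and 1, Epsti1, was lower (3.59%). The median change of the 38 was 0.495 in vehicle mice and 0.407 in PTH mice, beside -0.026 and 0.007 over all genes, and 31 and 26 of the 38 changes were positive, beside 45.4% and 51.3% of all genes.

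Irradiated and nonirradiated vehicle arrays did not overlap in 21 of 38 genes with the irradiated ones higher (8.95% of all genes), and in 14 of 38 in PTH mice (8.93%). All 6 irradiated arrays were above all 6 nonirradiated ones in 11 of 38 (1.69% of all genes), and below them in 1, Epsti1 (2.8%). Without irradiated PTH replicate 3, 13 were higher in vehicle mice (2.35% of all genes), where the array enters only through the shared estimate of spread. The same setting gave 14 in PTH mice (0.772%) and 22 in the average (3.54%). In vehicle mice 2 were higher without nonirradiated replicate 3 (0.547% of all genes) or without irradiated replicate 2 (0.547%) or 3 (0.657%). The count was 3 without replicate 1 of the nonirradiated (1.28%) or of the irradiated group (0.657%). In PTH mice 6 were higher without nonirradiated PTH replicate 1 (0.291% of all genes) or 2 (0.301%). With sex as a term, 3 were higher in vehicle mice (0.757%), 5 in PTH mice (0.331%) and 16 in the average (2.4%).

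**Figure D1:**
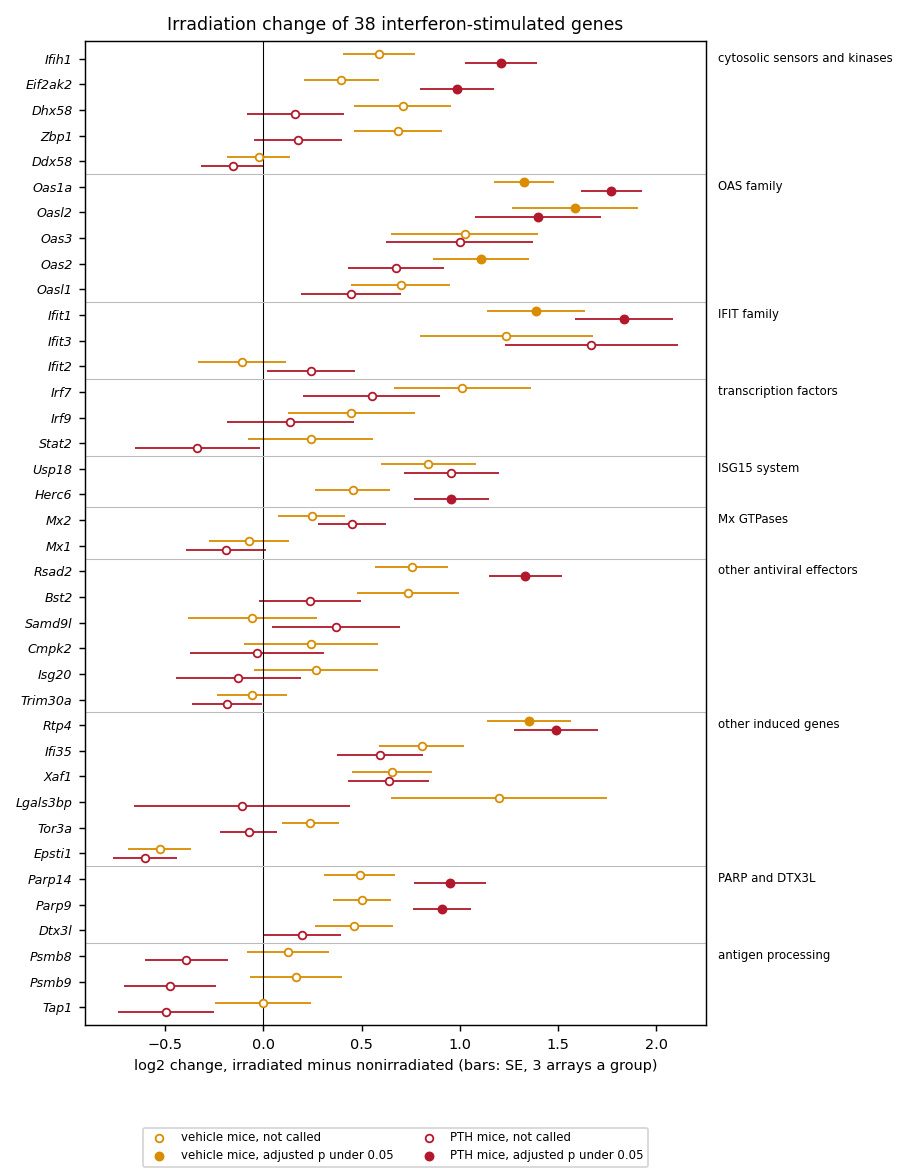
Log2 change with irradiation (x axis) for the 38 genes, grouped by role, in vehicle mice (orange) and PTH mice (red), with bars of 1 SE; filled circles have an adjusted p under 0.05. Genes of the OAS and IFIT groups reach furthest right. Ifit2, Mx1 and Ddx58 lie near 0, and Epsti1 lies at -0.53 and -0.60.

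Of the 5 sensors and kinases of the cytosol, 2 were higher in PTH mice (0.692% of all genes) and 0 in vehicle mice (1.21%). For 0 of the 5 did the irradiation change differ between the arms by the adjusted interaction test given below. Ifih1 encodes MDA5, a sensor of long double-stranded RNA. It measured 9.31, 9.04 and 8.70 in nonirradiated vehicle arrays and 9.39, 9.76 and 9.66 in irradiated vehicle arrays, and 8.75, 8.35 and 8.93 and 9.82, 9.89 and 9.97 in the corresponding PTH arrays. The irradiated arrays were above the nonirradiated ones in both arms, and the change was 0.59 (SE 0.183, adjusted p = 0.147) with vehicle and 1.21 (SE 0.183, adjusted p = 0.00422) with PTH. Eif2ak2 encodes PKR, the kinase that halts translation on double-stranded RNA. Its values were 10.06, 9.77 and 9.73 in nonirradiated and 10.11, 10.31 and 10.33 in irradiated vehicle arrays, and 9.53, 9.24 and 9.85 in nonirradiated and 10.30, 10.39 and 10.88 in irradiated PTH arrays. The change of Eif2ak2 was 0.40 (adjusted p = 0.396) with vehicle and 0.99 (SE 0.189, adjusted p = 0.0167) with PTH, and the latter call ended without nonirradiated PTH replicate 1 or 2, with sex as a term, with only the groups compared and under housekeeping centring of the arrays. Zbp1, a sensor of Z-form nucleic acid, changed by 0.69 with vehicle and 0.18 with PTH and did not pass (adjusted p = 0.169 and 0.779). Dhx58, the regulatory helicase LGP2, changed by 0.71 and 0.16, and Ddx58, the RNA sensor RIG-I, by -0.02 and -0.16, and neither passed. For Ddx58 the 95% interval of the average change was -0.34 to 0.16.

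Several proteins of the OAS family make oligoadenylates that activate the nuclease RNase L, and OAS-like proteins can act in other ways. All 5 measured genes of the family had positive changes in both arms. Oas1a measured 7.12, 7.05 and 6.89 in nonirradiated vehicle arrays, 6.27, 6.60 and 6.87 in nonirradiated PTH arrays, 8.47, 8.37 and 8.19 in irradiated vehicle arrays and 8.40, 8.44 and 8.22 in irradiated PTH arrays. The 6 irradiated arrays were all above the 6 nonirradiated ones and lay within 8.19 to 8.47. Oas1a rose by 1.33 (SE 0.155, adjusted p = 0.00105) with vehicle and by 1.77 (SE 0.155, adjusted p = 0.00014) with PTH, and passed in both arms whichever single array was left out. Oasl2 measured 8.16, 8.77 and 8.14 and 8.59, 8.25 and 8.73 in nonirradiated vehicle and PTH arrays, and 9.99, 10.06 and 9.79 and 10.17, 10.56 and 9.03 in irradiated ones. Its rises were 1.59 (SE 0.32, adjusted p = 0.0231) and 1.40 (SE 0.32, adjusted p = 0.043). Irradiated PTH replicate 3, at 9.03, lay below the other irradiated arrays and above every nonirradiated one, and the call of Oasl2 in PTH mice held in only 2 of 12 fits that each left out 1 array and in vehicle mice in 7 of 12. With sex as a term neither arm passed for Oasl2, nor did the vehicle arm for Oas2.

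Oas2 measured 7.89, 8.37 and 8.04 in nonirradiated and 9.42, 9.25 and 8.95 in irradiated vehicle arrays, which did not overlap, and rose by 1.11 (SE 0.243, adjusted p = 0.0364). The call held in 5 of 12 fits that left out 1 array. In PTH mice Oas2 was at 8.05, 8.65 and 8.32 without and 9.09, 9.47 and 8.48 with irradiation, where the groups overlapped through irradiated PTH replicate 3, and the change of 0.68 did not pass (adjusted p = 0.226). Oas3, the longest OAS enzyme, changed by 1.03 and 0.998 and passed only in the average (1.01, SE 0.265, adjusted p = 0.0434), a call kept in 3 of 12 fits that left out 1 array. Oasl1, a translational regulator of Irf7, changed by 0.70 and 0.45 and did not pass in the main fit. In the average it passed under some alternatives, among them repeated quantile normalization and housekeeping centring.

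IFIT proteins bind viral RNA and block its translation. Ifit1 measured 8.15, 8.74 and 8.03 in nonirradiated vehicle arrays and 8.14, 7.68 and 8.47 in nonirradiated PTH arrays, against 9.44, 9.81 and 9.83 in irradiated vehicle arrays and 9.95, 10.27 and 9.57 in irradiated PTH arrays. All irradiated arrays were above all nonirradiated ones, and irradiated PTH replicate 2 was the highest. Ifit1 had the largest average change of the 38 genes, 1.61 (SE 0.175, adjusted p = 0.000175), with 1.39 (adjusted p = 0.0116) in vehicle and 1.84 (adjusted p = 0.00219) in PTH mice. The vehicle call ended when replicate 3 of the nonirradiated or replicate 2 or 3 of the irradiated vehicle arrays was left out. Ifit3, which stabilises IFIT1 on RNA, measured 6.87, 6.36 and 6.59 and 5.58, 6.19 and 6.89 in nonirradiated vehicle and PTH arrays and 7.29, 7.49 and 8.75 and 7.20, 7.79 and 8.67 in irradiated ones. The replicates 3 of both irradiated groups were the highest, at 8.75 and 8.67. Ifit3 passed only in the average, at 1.45 (SE 0.312, adjusted p = 0.0158). Ifit2 had values of 7.93, 7.30 and 6.96 in nonirradiated and 7.24, 7.06 and 7.56 in irradiated vehicle arrays, and of 7.39, 6.97 and 7.32 and 7.38, 7.42 and 7.61 in the PTH arrays. It changed by 0.07 in the average (95% interval -0.28 to 0.41), and its groups overlapped.

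**Figure D2:**
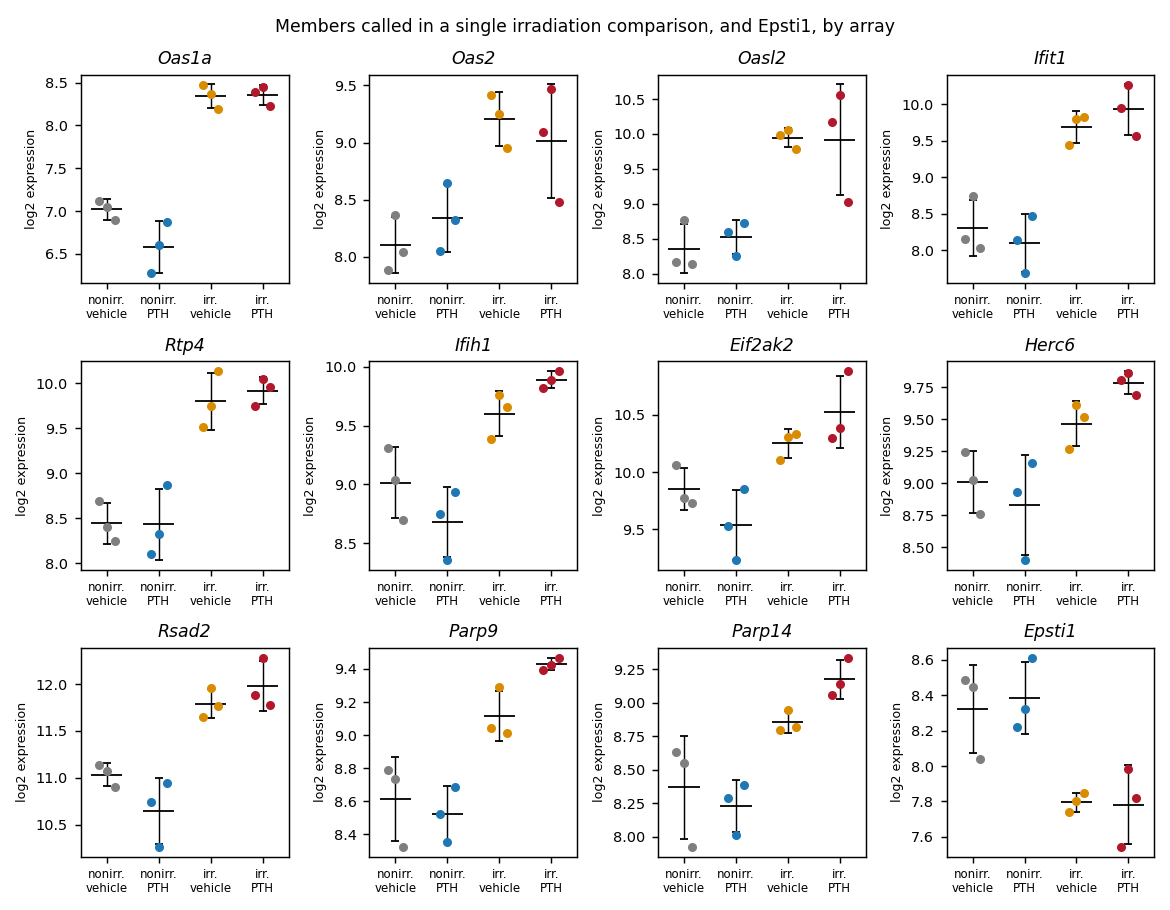
Log2 expression (y axis, a separate scale for each panel) in each of 12 arrays for the 11 genes with an adjusted p under 0.05 in vehicle or PTH mice, and for Epsti1. Points are arrays, bars are the group mean and SD (n = 3), and in Oas1a the 6 irradiated arrays lie between 8.19 and 8.47, above the 6 nonirradiated ones.

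Among the transcription factors of the pathway none of the 3 measured passed in the main fit. Irf7, which amplifies interferon production, measured 6.76, 7.77 and 6.92 in nonirradiated vehicle, 7.35, 7.15 and 7.43 in nonirradiated PTH, 8.25, 8.21 and 8.03 in irradiated vehicle and 8.09, 8.55 and 6.94 in irradiated PTH arrays. The vehicle groups did not overlap, whereas irradiated PTH replicate 3, at 6.94, lay among the nonirradiated arrays. The change was 1.01 (SE 0.35, adjusted p = 0.204) with vehicle and 0.55 (SE 0.35, adjusted p = 0.538) with PTH. In the average the change of Irf7 was 0.78 (limma adjusted p = 0.0986). It passed there with repeated quantile normalization, housekeeping centring or array weights. It also passed there without both narrow-range arrays, without irradiated PTH replicate 3 and without nonirradiated vehicle replicate 2. Irf9 and Stat2, the ISGF3 subunits measured here, changed by 0.29 and -0.05 in the average, with 95% intervals of -0.21 to 0.79 and -0.54 to 0.44.

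Usp18 removes the ubiquitin-like protein ISG15 from its targets and limits interferon receptor signalling. It measured 7.78, 8.30 and 7.77 in nonirradiated vehicle and 7.62, 7.96 and 7.97 in nonirradiated PTH arrays, and 8.63, 8.94 and 8.79 and 9.12, 9.12 and 8.18 in irradiated ones. Within each treatment the groups did not overlap, and Usp18 passed in the average (0.90, SE 0.171, adjusted p = 0.00756) and in neither arm (0.112 and 0.0669). Herc6, the main ligase that attaches ISG15 in mice, was at 9.25, 9.03 and 8.76 in nonirradiated and 9.27, 9.61 and 9.52 in irradiated vehicle arrays, and at 8.93, 8.40 and 9.16 in nonirradiated and 9.81, 9.87 and 9.69 in irradiated PTH arrays. Both arms were apart, and the change was 0.46 (adjusted p = 0.324) with vehicle and 0.96 (SE 0.192, adjusted p = 0.0213) with PTH. The call in PTH mice ended when replicate 1 or 2 of either PTH group was left out, with sex as a term and with only the groups compared.

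The Mx GTPases trap viral particles, and laboratory mouse strains of the B6 type are known to carry defective Mx genes. Mx1 and Mx2 were the only 2 of the 38 genes below the median gene mean of 6.479 on these arrays. Mx2 measured 5.28, 5.20 and 4.82 in nonirradiated vehicle, 5.04, 4.86 and 5.29 in nonirradiated PTH, 5.21, 5.36 and 5.47 in irradiated vehicle and 5.32, 5.80 and 5.42 in irradiated PTH arrays. The PTH groups did not overlap and the vehicle groups did, and the average change of 0.35 did not pass (adjusted p = 0.141). Mx1 changed by -0.13 (95% interval -0.44 to 0.18).

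Of 6 other antiviral effectors, Rsad2 alone passed, in PTH mice (0.692% of all genes higher) and in the average (2.51%). Rsad2 encodes viperin, an enzyme that makes a chain-terminating nucleotide against viral polymerases. It measured 11.13, 11.07 and 10.90 in nonirradiated vehicle and 10.74, 10.26 and 10.94 in nonirradiated PTH arrays, and 11.65, 11.95 and 11.76 in irradiated vehicle and 11.88, 12.28 and 11.78 in irradiated PTH arrays. All 6 irradiated arrays were above all 6 nonirradiated ones. The change was 0.76 (SE 0.185, adjusted p = 0.0623) with vehicle and 1.33 (SE 0.185, adjusted p = 0.00259) with PTH, and the latter call held without any single array. Bst2, which encodes the virus-tethering protein tetherin, changed by 0.74 with vehicle and 0.24 with PTH and did not pass. Samd9l, Cmpk2, Isg20 and Trim30a had average changes between -0.12 and 0.16, with groups that overlapped.

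Of the 6 other induced genes measured, 1 passed in each arm, as higher (1.21% of all genes with vehicle and 0.692% with PTH). Rtp4 encodes a chaperone of membrane receptors that is also known to inhibit flaviviruses. Rtp4 measured 8.69, 8.40 and 8.25 and 8.10, 8.32 and 8.87 in nonirradiated vehicle and PTH arrays, and 9.51, 9.75 and 10.14 and 9.75, 10.04 and 9.96 in irradiated ones. No irradiated array overlapped a nonirradiated one, and the rise was 1.35 (SE 0.214, adjusted p = 0.00592) and 1.49 (SE 0.214, adjusted p = 0.0031), called in both arms whichever single array was left out. Ifi35 and Xaf1, an interferon-induced leucine zipper protein and an antagonist of apoptosis inhibitors, passed only in the average, at 0.70 (adjusted p = 0.0181) and 0.65 (adjusted p = 0.0198). Leaving out single arrays, those 2 calls held in 10 and 8 of 12 fits. Lgals3bp, a secreted glycoprotein, had the widest spread of these 6 genes, from 7.30 in irradiated PTH replicate 3 to 10.17 in irradiated vehicle replicate 1, and did not pass. Tor3a changed by 0.08.

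Epsti1 went the other way. It measured 8.49, 8.45 and 8.04 in nonirradiated vehicle and 8.22, 8.32 and 8.61 in nonirradiated PTH arrays, against 7.74, 7.80 and 7.85 in irradiated vehicle and 7.54, 7.98 and 7.82 in irradiated PTH arrays. Every irradiated array was below every nonirradiated one, and Epsti1 fell in the average (change -0.57, SE 0.114, adjusted p = 0.0107), a call held without any single array. Neither arm passed alone, with changes of -0.53 (adjusted p = 0.137) and -0.60 (adjusted p = 0.0829).

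Parp9 and Parp14 are ADP-ribosyltransferase family proteins, and Dtx3l is the ubiquitin ligase that pairs with PARP9. Parp9 measured 8.79, 8.73 and 8.32 in nonirradiated and 9.04, 9.29 and 9.01 in irradiated vehicle arrays, and 8.53, 8.35 and 8.69 in nonirradiated and 9.40, 9.43 and 9.47 in irradiated PTH arrays. Parp14 measured 8.63, 8.55 and 7.92 and 8.80, 8.95 and 8.82 in the vehicle arrays, and 8.29, 8.01 and 8.39 and 9.06, 9.14 and 9.34 in the PTH arrays, nonirradiated first. For both genes the irradiated PTH arrays were the highest of the 12. Parp9 rose by 0.91 (SE 0.147, adjusted p = 0.00649) and Parp14 by 0.95 (SE 0.181, adjusted p = 0.0162) in PTH mice, beside 0.50 and 0.49 in vehicle mice, which did not pass. Neither call in PTH mice held with sex as a term, and that of Parp14 also ended without nonirradiated PTH replicate 1 or 2. Dtx3l changed by 0.46 and 0.20 and did not pass.

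The 3 genes of antigen processing did not pass in any comparison. Tap1, a subunit of the transporter that carries peptides to class I molecules, had the largest average change of the 3. Its values were 7.64, 8.09 and 7.19 in nonirradiated vehicle, 7.70, 7.88 and 7.82 in nonirradiated PTH, 7.86, 7.53 and 7.52 in irradiated vehicle and 7.37, 7.72 and 6.81 in irradiated PTH arrays. The groups overlapped in both arms, and the average change was -0.25 (95% interval -0.63 to 0.13). Psmb8 and Psmb9, subunits of the immunoproteasome, changed by -0.13 and -0.16, with intervals of -0.46 to 0.19 and -0.51 to 0.20.

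Genes that lie next to each other did not always change by the same amount. Among the 38 genes, 8 pairs are neighbours with no protein-coding gene between them in RefSeq, on chromosomes 5, 12, 16, 17 and 19. They were taken up after their values had been seen, so the differences are described and not tested. In 3 of the 8 pairs the difference between the neighbours, taken within each array, did not overlap between the 6 irradiated and the 6 nonirradiated arrays, against 5.7% of 16915 neighbouring gene pairs measured. Rsad2 changed by 0.94 more than its neighbour Cmpk2, a mitochondrial nucleotide kinase, in the average over both treatments. The change of Ifit2 minus that of Ifit3 was -1.39, and Oasl2 changed by 0.92 more than Oasl1. These differences ranged from 0.715 to 1.089, from -1.534 to -1.184 and from 0.843 to 0.984 when any single array or both narrow-range arrays were left out or quantile normalization was repeated. In the other 5 pairs the groups overlapped, with differences from -0.38 for Dtx3l minus Parp9 to 0.39 for Parp14 minus Dtx3l. Rows of different genes can respond to the same change in RNA to different degrees, so an unequal change does not show that the lesser gene stayed constant.

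**Figure D3:**
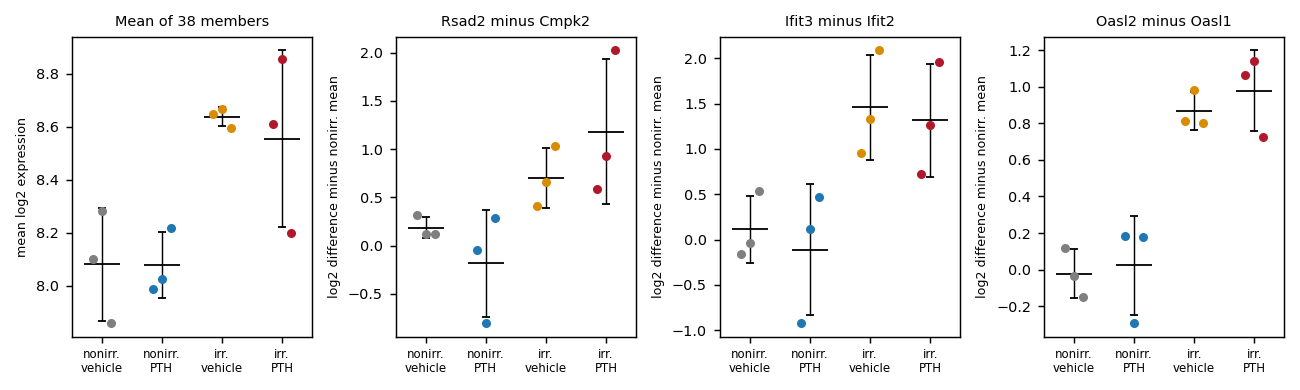
The first panel gives the mean log2 expression of the 38 genes in each array, and the other panels the log2 difference between neighbouring genes, less its mean in the 6 nonirradiated arrays (for the IFIT pair drawn as Ifit3 minus Ifit2). Points are arrays and bars the group mean and SD (n = 3); the 3 irradiated vehicle arrays lie within 8.60 to 8.67 in the first panel, and irradiated PTH replicate 3, at 8.20, lies at the level of the nonirradiated arrays.

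The mean over the 38 genes in an array was 8.08 ± 0.212 (SD, n = 3) in nonirradiated vehicle mice, 8.08 ± 0.124 in nonirradiated PTH mice, 8.64 ± 0.0359 in irradiated vehicle mice and 8.56 ± 0.332 in irradiated PTH mice. Irradiated vehicle arrays lay from 8.60 to 8.67, above the nonirradiated vehicle arrays at 7.86 to 8.28. Irradiated PTH replicates 1 and 2 were at 8.61 and 8.86 and replicate 3 at 8.20, which overlapped the nonirradiated PTH arrays at 7.99 to 8.22. Replicate 3 was the lowest of its group in 26 of the 38 genes and the highest in 7, and nonirradiated vehicle replicate 3 was the lowest of its group in 27 and the highest in 0. Both are the arrays with a narrow range, and the part of that range in these values was not tested.

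**Figure D4:**
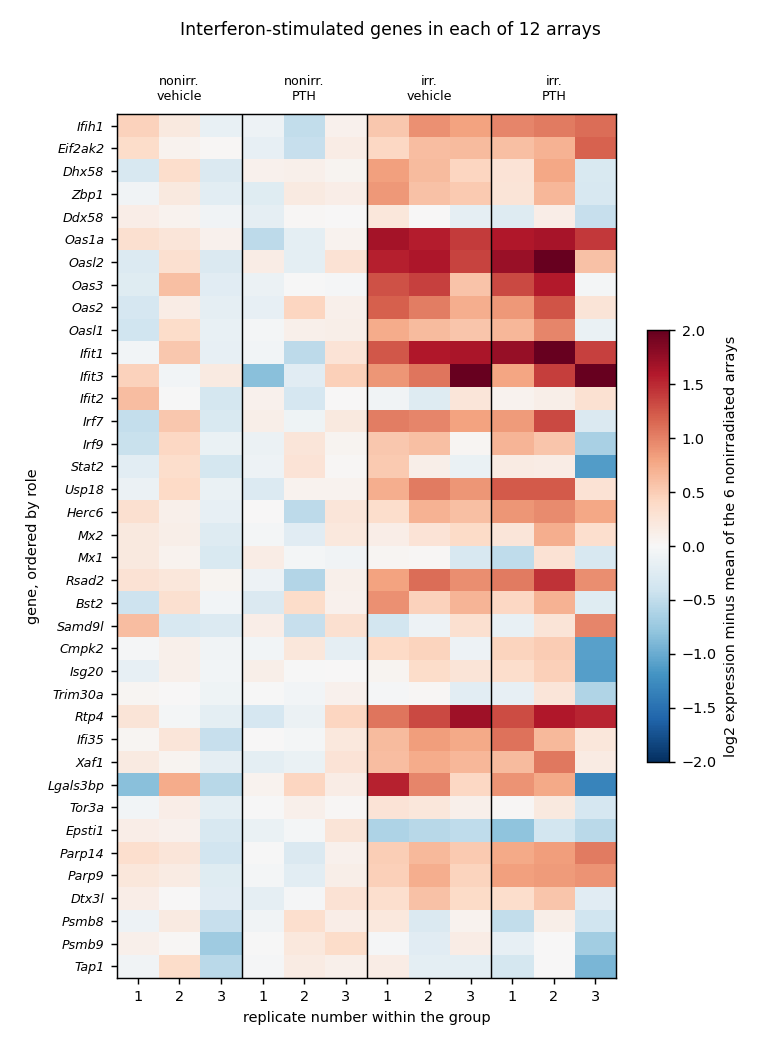
Log2 expression of each of the 38 genes (rows, by role) in each of the 12 arrays (columns), less the mean of the gene in the 6 nonirradiated arrays; red is higher and blue lower. Oas1a, Ifit1 and Rtp4 are red in all 6 irradiated arrays, Epsti1 is blue in them, and irradiated PTH replicate 3 has blue cells in Lgals3bp, Stat2, Cmpk2 and Isg20.

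Between PTH and vehicle in irradiated mice, 0 of the 38 genes passed limma's adjusted test, as did 0 of all 19938 genes (0% in either direction). At an unadjusted p under 0.05 there were 0 of 38, against 3.81% of all genes. Same-numbered arrays of the irradiated groups met the pairing check, although some differently numbered ones also correlated, at up to 0.396. At that p a fit of these 6 arrays alone gave 5 of 38 with the replicate number as a block (9.73% of all genes). Without the block it gave 3 of 38 (2.52%). In both fits 0 of 38 passed the adjusted test. The median change was -0.099 beside 0.010 over all genes, and it was 0.109 without irradiated PTH replicate 3. Irradiated PTH arrays were above irradiated vehicle arrays without overlap in 4 of 38 genes (5.48% of all genes), Ifih1, Herc6, Parp9 and Parp14, whose array values are given above. Parp9 had the smallest p, with a change of 0.32 (SE 0.147, 95% interval -0.01 to 0.64, limma adjusted p = 0.844). Zbp1 came next, at 8.17, 7.90 and 7.84 in irradiated vehicle and 7.56, 7.98 and 6.99 in irradiated PTH arrays and at 7.24, 7.51 and 7.10 and 7.07, 7.49 and 7.44 in nonirradiated vehicle and PTH arrays. Its irradiated groups overlapped, and the change was -0.46 (interval -0.95 to 0.03). Parp14 changed by 0.32 (interval -0.07 to 0.72). For the genes with the largest irradiation change the interval of the PTH difference was -0.30 to 0.78 for Ifit1, -0.33 to 0.35 for Oas1a and -0.72 to 0.67 for Oasl2, so changes of that size in either direction are within the error.

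In nonirradiated mice 0 of 38 genes passed with PTH, and 0 of all genes (0%). Oas1a was the only 1 with an unadjusted p under 0.05 (1.79% of all genes), at -0.44 (SE 0.155, adjusted p = 1), and its 3 PTH arrays were all below the 3 vehicle arrays, as in 3.62% of all genes. Rsad2 and Ifih1 followed, at -0.39 (interval -0.79 to 0.02) and -0.33 (interval -0.73 to 0.06). The median change of the 38 was 0.025 beside 0.011 over all genes. All 3 PTH arrays here had the female pattern and all 3 vehicle arrays the male one.

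Whether the irradiation change differed between PTH and vehicle mice was tested as an interaction, and 0 of 38 genes passed (0 of all genes, 0%). At an unadjusted p under 0.05 there were 3 of 38, against 5.49% of all genes. Ifih1 had an interaction of 0.62 (SE 0.258, adjusted p = 0.732), Eif2ak2 of 0.59 (SE 0.267, adjusted p = 0.732) and Rsad2 of 0.58 (SE 0.262, adjusted p = 0.732). In each the change was larger in PTH mice. The 6 genes called in PTH mice and not in vehicle mice (Ifih1, Eif2ak2, Herc6, Rsad2, Parp9 and Parp14) and Oas2, called in vehicle mice and not in PTH mice, were thus not shown to differ between the arms. The count of the 38 with an unadjusted p under 0.05 for the interaction was 0 with sex as a term (1.52% of all genes), 7 with quantile normalization repeated (4.45%), 7 with housekeeping centring (5.99%) and 6 without both narrow-range arrays (2.4%), and 0 passed the adjusted test in each.

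Other genes of the pathway were read from lists chosen with earlier results known. In the average, 2.51% of all genes were higher and 3.59% lower. Of 16 measured interferon genes, which include Ifng and Ifnl2 of other types, 0 passed in the average. Ifnb1 lay between 3.70 and 4.59 over the 12 arrays, and Ifna4 between 3.67 and 4.17, near the liver marker Alb (3.90 to 4.40). Others lay higher, with Ifnz up to 9.28. Signal over background was not measured, so this does not show that interferon expression stayed the same. Of 7 receptors and kinases 0 passed, and all 7 changes lay between -0.22 and -0.08. Among 13 inducers of interferon, Tlr3, the endosomal receptor of double-stranded RNA, rose by 0.99 (SE 0.158, adjusted p = 0.00247) and Tlr9, the receptor of unmethylated DNA, fell (-0.89, SE 0.174, adjusted p = 0.00932). Among 8 negative regulators Socs3, an inhibitor of JAK kinases, rose by 0.88 and the phosphatase Ptpn6 and the nucleotide hydrolase Samhd1 fell (-0.58 and -0.31). Of 39 other interferon-stimulated genes, 5 rose (Phf11d, Ifitm1, Ifi27, Uba7 and Ifitm3, by 0.53 to 1.20) and Trim30d fell (-0.53). Uba7 encodes the enzyme that activates ISG15. Of 8 further class I presentation genes, 0 passed. Of 11 measured genes listed as induced by interferon-gamma, 6 rose and 3 had negative changes, down to -0.33. Those that rose included the chemokine gene Cxcl9 (1.13), the GTPase genes Irgm1 (1.04) and Iigp1 (1.53) and Cxcl10 (0.88).

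The cell types of the marrow moved with the same comparison, and in bulk RNA fewer cells of a type and less RNA per cell cannot be told apart. Of 8 measured B-lineage markers 7 fell, and their mean in an array lay between 9.58 and 10.01 without irradiation and between 7.30 and 7.98 with it. Of 5 markers of plasmacytoid dendritic cells, a known source of type I interferon, 2 fell (Siglech by 1.56 and Ccr9 by 1.34). Falls were also seen in 4 of 8 T and NK cell markers and 3 of 5 megakaryocyte markers. Monocyte and macrophage markers were mixed: of 9, 3 rose (Cd5l by 1.44, Marco by 0.81 and C1qc by 0.49). None passed as lower, but 4 of the 9 had negative changes, down to -0.48. Rises were also seen in 5 of 6 adipocyte markers and 1 of 5 endothelial ones. Over all genes, 2.51% were higher and 3.59% lower in the average. Ly6g, 1 of 8 neutrophil markers, and Car1, 1 of 5 erythroid markers, fell, while 4 of the 8 and 3 of the 5 had positive changes. Of 4 liver and 5 skeletal muscle markers 0 passed, and the liver marker Alb lay between 3.90 and 4.40 in all arrays. The part of these shifts in the changes of the 38 genes was not tested.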

How the data were processed

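The members of the gene list and the other lists were chosen with earlier results of these data known. The authors deposited log2 values (the scale was inferred from their range), and the tools affy, RMA and limma are named in the submitters' processing notes without versions or roles. RMA corrects background, quantile-normalizes probes and summarizes them by median polish. Whether all arrays were normalized together, and the genome build, are not given in the sources used here. Per the labels' protocols, 100 ng of total RNA from marrow flushed with Trizol was amplified to biotinylated cDNA. Of 35556 rows, 21789 had 1 gene symbol, 1621 several and 12146 were not listed in the annotation table, and the first gave 19938 genes, by the highest mean row. Symbols were updated through RefSeq (GRCm38.p6), where 91 rows had no match.

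The 4 group means were fitted to all 12 arrays in limma 3.58.1 (R 4.3.3) with 8 residual degrees of freedom and moderated variances. A gene was called at an adjusted p under 0.05 (Benjamini-Hochberg over all genes), intervals are 95% and errors are SE of the fit. The fit was tested on simulated data with independent normal errors. That simulation held no narrow-range arrays and no sex pattern, so it does not cover them. The number of arrays limits precision: the median SE of a difference was 0.166 over all genes. Values in each array are given for genes called in an arm, for the largest change of each role group and for the 3 smallest p-values of each PTH comparison and the interaction, while Ifit2, Ifit3 and Epsti1 were added after their values were seen. Pathway genes named passed, or were added after their values were seen.

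Replicate numbers were checked as pairs by the correlation of deviations from group means. Same-numbered arrays of the 2 irradiated groups had correlations of 0.144 to 0.57, which meets the rule for pairing (every pair over 0.1). Replicate 1 is female in both. Differently numbered arrays of these groups had correlations of -0.509 to 0.396, some of them above 0.144. The rule thus does not show that equal numbers mark pairs, and the labels do not state pairs. Other group pairs did not meet it, with lowest correlations from -0.65 to -0.038. Alternatives covered row choice, filters, scaling, variance model, array weights, replicate block, sex, both narrow-range arrays and each array left out.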

Additional observations from a re-analysis of the deposited data

How the results depend on the processing

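No gene called after irradiation reversed its direction under the alternatives run. In vehicle mice, the count of the 38 genes higher after irradiation was 5 in the main fit (1.21% of all genes). It was 12 with array weights (3.04%) and 3 with sex as a term (0.757%). Leaving out 1 array gave 2 to 13 (0.547% to 2.35%). In PTH mice it was 18 with array weights (2.1%) and 5 with sex as a term (0.331%), beside 10 (0.692%). Leaving out 1 array gave 6 to 14 there (0.291% to 0.772%). In the average it ranged from 13 to 22 when 1 array was left out (1.68% to 3.54%), beside 16 (2.51%). Dhx58, Zbp1, Oasl1, Irf7, Bst2 and Dtx3l joined there without irradiated PTH replicate 3. The same genes joined with array weights, where 22 were also higher (5.9%). The count lower after irradiation, 0 in the main fit, became 1 in vehicle mice with quantile normalization repeated or array weights. It became 1 in PTH mice with array weights. Of all 19938 genes, 329, 542 and 729 were lower in these fits. The median PTH change in irradiated mice was 0.109 without both narrow-range arrays, 0.079 with housekeeping centring and 0.032 with array weights, and ranged from -0.336 to 0.109 without 1 array, beside -0.099. The median interaction was 0.125 with arrays centred on housekeeping genes, 0.104 with array weights and 0.138 without both narrow-range arrays, and ranged from -0.339 to 0.098 without 1 array, beside -0.13. Thus neither median has a settled sign. The array mean in irradiated vehicle mice was 8.592 with quantile normalization repeated and 8.543 with housekeeping centring, beside 8.637. Centring on housekeeping genes moved the median of all genes to -0.163 in vehicle mice, 0.125 in PTH mice and 0.269 in the interaction. The cause of these shifts was not tested.

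With the replicate block, 5, 12 and 16 of the 38 genes were higher in vehicle mice, PTH mice and the average. These counts stood beside 1.42%, 0.838% and 2.77% of all genes. With the block in the 2 irradiated groups alone, where the pairing check was met, 0 of 38 passed for PTH and 5 had an unadjusted p under 0.05 (9.73% of all genes), beside 3 in the same 6 arrays without the block (2.52%). The block ended no call of the 38 genes. Signal over background was not measured, and Mx1 and Mx2 lay below the median gene.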
